A study of Mus musculus with 2 samples.

Results

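Egr1, Egr2, Egr3, Nr4a1, Nr4a2, Ier2, Ier5, Srf and Zfp36 are immediate early and serum response genes outside the AP-1 family. All 9 were found by symbol among the 15239 genes of the deposited table. They were followed in 2 messenger RNA libraries of mouse mammary basal cells, the outer epithelial layer of the gland, which includes the contractile myoepithelial cells. Scramble control cells carried a scrambled short hairpin RNA and Cdk14-sh cells a hairpin against Cdk14, a cyclin Y-dependent kinase that takes part in phosphorylation of a Wnt coreceptor. The labels call the tissue mammary gland and its disease state normal. The sources used here do not give strain, age, number of animals, hairpin sequence or time after delivery. The design text names the human line MDA-MB-231 and the extraction protocol names retinas, but the gene identifiers are mouse. With 1 library a group, no difference could be set against replicate spread, and no p-value is given.

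Immediate early genes are transcribed within minutes of a stimulus without new protein synthesis. Growth factors signal through the ERK kinases to ternary complex factors, which sit with serum response factor (Srf) on the CArG box of many of these promoters. Srf also pairs with myocardin-related cofactors that respond to actin and drive cytoskeletal and contractile genes, the main products of myoepithelial cells. Egr proteins are zinc finger activators restrained by the corepressors Nab1 and Nab2. Nr4a proteins are orphan nuclear receptors. Ier2 and Ier5 are small nuclear regulators, and Zfp36 (tristetraprolin) binds AU-rich messages and brings the deadenylation machinery to them.

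The 9 genes went in different directions. Egr2, Zfp36 and Nr4a2 were 3.16-fold, 2.08-fold and 1.96-fold lower in Cdk14-sh, Egr3 and Srf were 3.12-fold and 2.13-fold higher, and Egr1, Nr4a1, Ier2 and Ier5 differed by less than 1.2-fold. The promoters of genes from each of these groups are printed here because they differ in which response elements they hold. RefSeq windows (build GRCm38.p6) of 250 bases before to 50 after a transcription start were used. They covered 6 of the 9 genes, Egr2, Ier5, Nr4a1, Nr4a2, Srf and Zfp36. Capitals mark every match, on either strand, to the CArG box, to GCGNGGGCG (an Egr binding motif), to TGACG (part of the cAMP response element TGACGTCA) and to TATAAA. Egr2 had 5 windows, of which the third is shown.
Egr2, chr10:67537619-67537918, plus strand: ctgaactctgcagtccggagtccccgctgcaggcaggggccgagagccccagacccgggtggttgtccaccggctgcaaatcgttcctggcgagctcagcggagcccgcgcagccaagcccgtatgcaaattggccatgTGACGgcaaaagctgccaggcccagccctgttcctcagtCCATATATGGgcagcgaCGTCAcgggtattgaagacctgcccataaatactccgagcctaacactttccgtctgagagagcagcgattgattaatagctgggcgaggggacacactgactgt
Zfp36, chr7:28379179-28379478, minus strand: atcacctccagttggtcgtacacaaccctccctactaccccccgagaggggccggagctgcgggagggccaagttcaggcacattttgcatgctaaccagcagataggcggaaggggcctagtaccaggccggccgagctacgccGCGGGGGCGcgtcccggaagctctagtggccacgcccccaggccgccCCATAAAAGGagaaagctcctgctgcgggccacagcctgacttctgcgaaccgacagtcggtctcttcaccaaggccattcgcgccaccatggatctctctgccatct
Srf, chr17:46556113-46556412, minus strand: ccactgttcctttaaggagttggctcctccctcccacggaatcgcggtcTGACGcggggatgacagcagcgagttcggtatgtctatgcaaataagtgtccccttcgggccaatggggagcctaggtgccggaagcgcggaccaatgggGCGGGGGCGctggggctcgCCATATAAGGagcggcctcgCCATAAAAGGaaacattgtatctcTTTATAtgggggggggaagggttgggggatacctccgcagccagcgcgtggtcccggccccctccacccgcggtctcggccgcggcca
Nr4a1, chr15:101266596-101266895, plus strand: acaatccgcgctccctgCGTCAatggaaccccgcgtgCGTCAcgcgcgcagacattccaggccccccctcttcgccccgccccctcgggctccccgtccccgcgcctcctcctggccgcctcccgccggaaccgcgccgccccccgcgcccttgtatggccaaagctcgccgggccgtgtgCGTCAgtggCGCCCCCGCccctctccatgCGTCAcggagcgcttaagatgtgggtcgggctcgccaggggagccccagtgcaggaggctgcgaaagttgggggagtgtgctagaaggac
Nr4a2, chr2:57123954-57124253, minus strand: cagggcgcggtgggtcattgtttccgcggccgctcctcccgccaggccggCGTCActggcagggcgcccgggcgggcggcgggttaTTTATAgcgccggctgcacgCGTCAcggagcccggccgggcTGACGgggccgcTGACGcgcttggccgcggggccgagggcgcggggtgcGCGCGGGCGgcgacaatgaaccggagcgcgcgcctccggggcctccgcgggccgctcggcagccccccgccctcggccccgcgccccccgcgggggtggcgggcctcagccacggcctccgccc

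A CArG box without mismatch was present in the windows of 3 of the 6 genes, Egr2, Zfp36 and Srf, and in 1.81% of the 27025 genes of the promoter table. Egr2 held CCATATATGG at positions -72 to -63 from the start, with a match to TGACG on either side of it. Srf held CCATATAAGG at -82 to -73 and CCATAAAAGG at -62 to -53. Zfp36 held CCATAAAAGG at -58 to -49. Thus genes with the box were found both below and above their control level. Of the other Egr2 windows, 1 held no CArG box, 1 held CCTTTTTTGG at -72 to -63, and 2 were shifted copies of the stretch printed. The Nr4a1 and Nr4a2 windows held no CArG box, and each held 4 copies of TGACG and 1 match to GCGNGGGCG. That Egr motif was also found in Srf and Zfp36, so in 4 of the 6 genes, against 6.27% of all genes, and TGACG in 4 of the 6 against 23%. TATAAA was found in Nr4a2 and Srf, 2 of the 6 against 15.7%, and TGACGTCA in none against 2.03%. The Ier5 window held no match to any of these. The matches describe letters in these windows, not sites in use.

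The values are FPKM, fragments scaled to gene length and library total. Levels can be compared between genes only as far as the exonic length of each gene matches its messages, which was not tested. The commonest value of FPKM times gene length in each library was taken as 1 fragment. This gave totals of 5093462 fragments for Scramble control and 5088593 for Cdk14-sh, and from them the fragments behind each gene. Intervals in parentheses are 95% intervals from those fragments, exact Poisson for a level and exact binomial (Clopper-Pearson) for a ratio. They cover counting error only and compare these 2 libraries, not the conditions. Cdk14 itself was at 2.06 FPKM in Scramble control and 0.713 FPKM in Cdk14-sh, 34.5% of the control level (25.6 to 45.3). Over the 12830 genes whose mean over both libraries reached 1 FPKM, the log2 ratio, log2 of (Cdk14-sh + 1) over (Scramble control + 1), had a median of 0.02 and an SD of 1.02. In this comparison 13.5% of genes were 2-fold lower or more on that scale and 14.2% were 2-fold higher or more, 27.8% together. The counting interval of the ratio lay below 1 for 33.2% of genes and above 1 for 35.9%.

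All 9 genes passed the filter of a mean of at least 1 FPKM. On the log2 scale 2 of them (Egr2 and Zfp36) were 2-fold lower or more, against 13.5% of all genes, and 1 (Egr3) was 2-fold higher or more, against 14.2%, so 3 of 9 against 27.8%, and their median log2 ratio was -0.01. The counting interval lay below 1 for 4 genes and above 1 for 4, together 8 of 9 against 69.1% of all genes. An interval leaves out 1 more easily the more fragments a gene has, and these shares were not compared at matched levels. As a group, the 9 therefore stood close to the background of all genes, and the differences are those of single genes. Their summed level was 1248 FPKM in Scramble control and 1158 FPKM in Cdk14-sh.

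**Figure D1:**
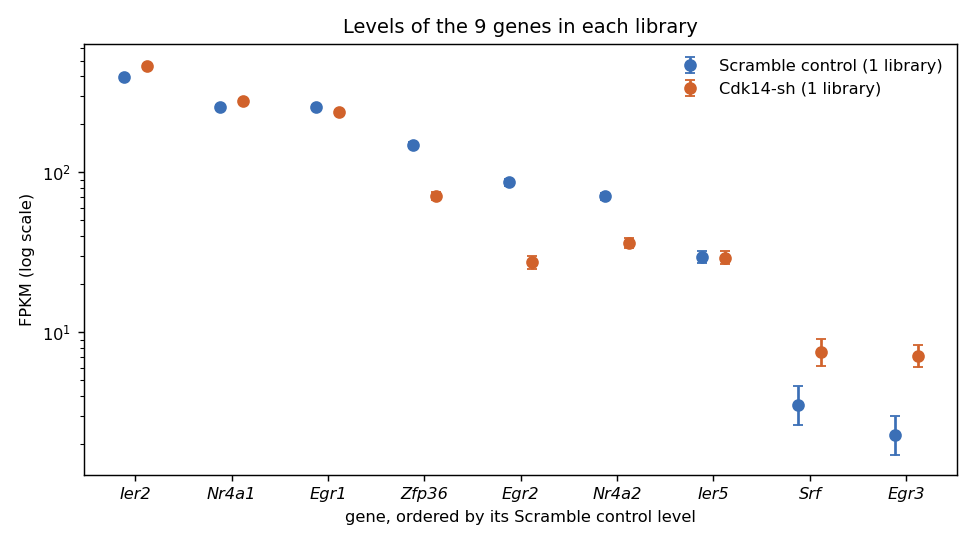
Level of each of the 9 genes in FPKM (log axis) in the Scramble control and Cdk14-sh libraries, 1 library each; bars are exact 95% Poisson intervals of the fragments. Ier2, Nr4a1 and Egr1 lie above 230 FPKM in both libraries, Zfp36, Egr2 and Nr4a2 are lower in Cdk14-sh, and Srf and Egr3 are higher but stay below 8 FPKM.

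Among the Egr genes, the dominant member was nearly level while the other two moved in opposite directions. Egr1, the most widely induced member of the family, lies on the plus strand of chromosome 18 (34859823 to 34864984, GRCm38). It was at 256 FPKM (249 to 262) in Scramble control and 238 FPKM (232 to 244) in Cdk14-sh, a ratio of 0.931 (0.897 to 0.966). That difference was beyond counting error but small, and 5656 of the 12830 measured genes had a log2 ratio as low or lower.

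Egr2, which controls myelination in Schwann cells and hindbrain patterning, lies on the plus strand of chromosome 10 (67535475 to 67542188). It was at 86.5 FPKM (82.2 to 91.0) in Scramble control and 27.4 FPKM in Cdk14-sh, from 1497 and 474 fragments. It was 3.16-fold lower (2.84 to 3.51), the lowest ratio of the 9 genes, and 632 of the 12830 measured genes (4.93%) had a log2 ratio as low or lower. In rank by FPKM it went from place 772 of 15239 to place 2578.

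Egr3, a relative with roles in muscle spindles and lymphocytes, lies on the plus strand of chromosome 14 (70077203 to 70082614). It was at 2.29 FPKM (1.70 to 3.01) in Scramble control and 7.15 FPKM (6.08 to 8.34) in Cdk14-sh, from 51 and 160 fragments. It was 3.12-fold higher (2.28 to 4.39), the highest ratio of the 9, and 1177 measured genes (9.17%) had a log2 ratio as high or higher. Ratios between genes of 1 library do not depend on how libraries are scaled, though they do depend on the gene lengths used. Egr2 was 37.8 times as abundant as Egr3 in Scramble control and 3.84 times as abundant in Cdk14-sh, a 9.86-fold difference (7.07 to 13.7, normal approximation on the log scale). Egr2 gave 25.1% of the summed FPKM of Egr1 to Egr3 in Scramble control and 10.1% in Cdk14-sh, Egr3 gave 0.664% and 2.62%, and Egr1 gave 74.2% and 87.3%.

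The Egr corepressors were both higher in Cdk14-sh. Nab1 was at 23.8 FPKM in Scramble control and 47.1 FPKM in Cdk14-sh, 1.98-fold higher (1.78 to 2.21). Nab2, itself a target of Egr proteins, was at 7.48 FPKM and 13.3 FPKM, 1.78-fold higher (1.40 to 2.26). Opposite-strand genes overlap 42.2% of the exonic bases of Nab2, and the sources used here do not say whether strand was used in counting. Of the 8 genes listed as Egr targets, 7 were measured, with Pdgfb past 2-fold lower, Ptges past 2-fold higher and a median log2 ratio of 0.21, so that the share past 2-fold was near the 13.5% and 14.2% of all genes. The growth factor gene Pdgfb was lowest, at 20.2 FPKM in Scramble control and 8.45 FPKM in Cdk14-sh. The prostaglandin E synthase gene Ptges was highest, 4.43-fold higher (3.57 to 5.55) at 22.6 FPKM, and the growth factor gene Fgf2 was 1.88-fold higher (1.26 to 2.83).

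**Figure D2:**
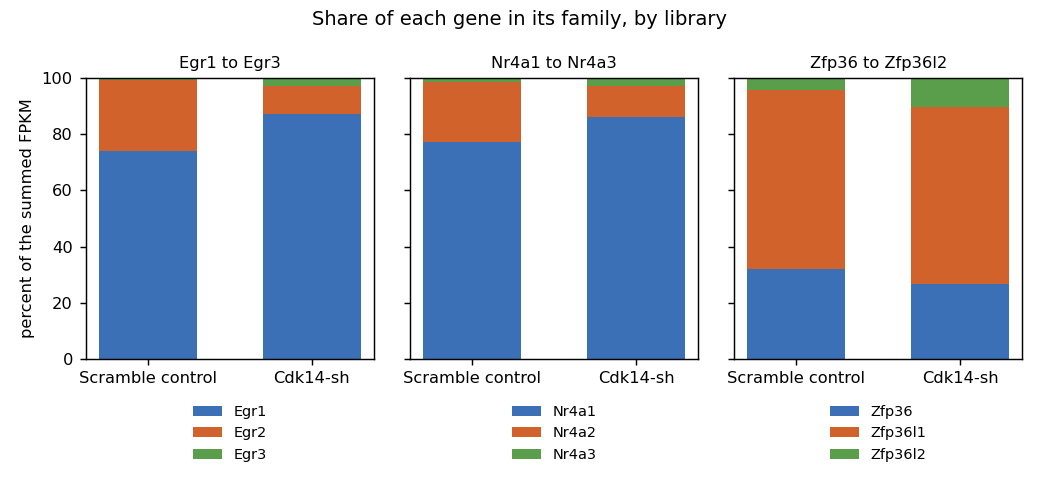
Share of each gene in the summed FPKM of its family (percent, stacked bars), in Scramble control and Cdk14-sh. The part of Egr2 is 25.1% and 10.1%, that of Nr4a2 21.3% and 11.2%, and that of Zfp36 31.8% and 26.6%.

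The Nr4a receptors showed the same arrangement of levels, with an abundant gene that was nearly level, an intermediate gene that was lower and a scarce gene that was higher. Nr4a1 (Nur77) lies on the plus strand of chromosome 15 (101254269 to 101274795). It was at 257 FPKM (250 to 265) in Scramble control and 278 FPKM (270 to 285) in Cdk14-sh, a ratio of 1.08 (1.04 to 1.12). Among measured genes, 5881 had a log2 ratio as high or higher.

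Nr4a2 (Nurr1), known for its role in dopaminergic neurons, lies on the minus strand of chromosome 2 (57106830 to 57124003). It was at 70.8 FPKM (67.2 to 74.5) in Scramble control and 36.2 FPKM (33.6 to 38.9) in Cdk14-sh, from 1463 and 747 fragments. It was 1.96-fold lower (1.79 to 2.14), and 1860 measured genes (14.5%) had a log2 ratio as low or lower. Its log2 ratio of -0.95 put it just short of the 2-fold limit.

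Nr4a3 (Nor1), a family member outside the 9, was at 3.97 FPKM and 8.68 FPKM, 2.19-fold higher (1.76 to 2.74). Relative to Nr4a1 in the same library, Nr4a2 was at 0.275 in Scramble control and 0.130 in Cdk14-sh, a 2.11-fold difference (1.92 to 2.33, normal approximation). Relative to Nr4a3, Nr4a2 was 17.8 times as abundant in Scramble control and 4.17 times as abundant in Cdk14-sh. The summed level of Nr4a1 to Nr4a3 was 332 FPKM and 322 FPKM, so the family total differed little while its makeup did. Nr4a1 and Nr4a2 bind DNA also with retinoid X receptors, of which Rxra was at 0.683 FPKM and 1.48 FPKM and Rxrb at 5.15 FPKM and 1.45 FPKM, 3.56-fold lower (2.35 to 5.61).

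Ier2 was the most abundant of the 9 in both libraries. It is an intronless gene on the minus strand of chromosome 8 (84661331 to 84662852), and stood at 394 FPKM (380 to 409) in Scramble control and 463 FPKM (448 to 479) in Cdk14-sh. The ratio was 1.18 (1.12 to 1.23), a small difference beyond counting error, with 5151 measured genes as high or higher. Ier5, also intronless, regulates heat shock factor and is found on chromosome 1 (155096361 to 155099636, minus strand). It was at 29.5 FPKM (26.9 to 32.2) and 29.3 FPKM (26.8 to 32.1), a ratio of 0.995 (0.876 to 1.13). It was the only one of the 9 whose interval held 1. Ier3, an immediate early gene that modulates apoptosis and ERK signalling, was 1.49-fold lower (1.37 to 1.62), at 253 FPKM and 170 FPKM. Ier5l was at 1.39 FPKM and 0.879 FPKM, too few fragments to separate the libraries (ratio 0.632, 0.280 to 1.37).

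Srf encodes the DNA-binding partner shared by both branches of the serum response. It lies on the minus strand of chromosome 17 (46548329 to 46556175). It was at 3.53 FPKM (2.63 to 4.62) in Scramble control and 7.51 FPKM (6.18 to 9.05) in Cdk14-sh, from 52 and 111 fragments. It was 2.13-fold higher (1.52 to 3.03), and 2102 measured genes (16.4%) had a log2 ratio as high or higher. With 1 FPKM added its log2 ratio was 0.91, below the 2-fold limit. The recovered fragments of Srf in both libraries, of Egr3 in Scramble control and of Nr4a1 in Cdk14-sh were not near multiples of 0.25, so the intervals of these genes are approximate.

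The Srf cofactors did not move as a block. Of 6 listed, 4 were measured, with 3 below 0 and a median log2 ratio of -0.33, which became -0.02 without the filter on low values. The actin-responsive cofactor Mkl1 (Mrtfa) was at 1.73 FPKM and 7.26 FPKM, 4.19-fold higher (3.10 to 5.75), and its relative Mkl2 was at 6.30 FPKM and 5.63 FPKM. The ternary complex factors Elk4 and Elk3 were lower, by 1.65-fold (1.46 to 1.87) and 1.54-fold (1.17 to 2.03), at 12.2 FPKM and 3.83 FPKM in Cdk14-sh. Elk1 (0.0730 FPKM and 0.146 FPKM) and myocardin (Myocd, 0.244 FPKM and 0.673 FPKM) were below the filter.

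**Figure D3:**
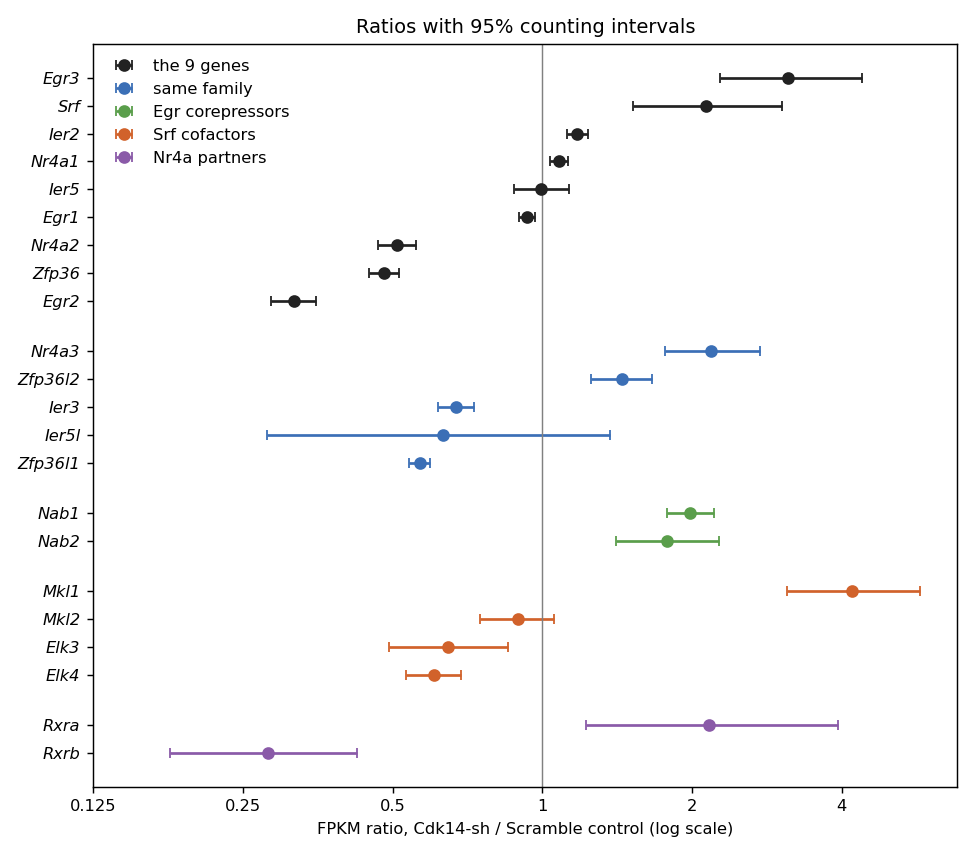
FPKM ratio of Cdk14-sh over Scramble control (log axis) with exact 95% binomial counting intervals, for the 9 genes, family members, Egr corepressors, Srf cofactors and Nr4a partners. Both corepressors and Mkl1 lie above 1 (1.98, 1.78 and 4.19), and Elk3, Elk4 and Rxrb lie below it.

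Of 18 Srf-dependent cytoskeletal genes, all measured, 4 were past 2-fold lower and 1 past 2-fold higher, with a median log2 ratio of -0.21. Together they match the 27.8% of all measured genes past 2-fold. The lowest were the smooth muscle genes Actg2 (120 FPKM and 3.66 FPKM), Cnn1 (359 FPKM and 107 FPKM) and Tagln (137 FPKM and 49.0 FPKM). The fourth was the tropomyosin gene Tpm2, 2.43-fold lower (2.27 to 2.61). The highest were the calponin gene Cnn2, 2.25-fold higher (2.06 to 2.47), the matricellular gene Cyr61, 1.59-fold higher (1.53 to 1.66), and the LIM protein gene Fhl2, 1.52-fold higher (1.35 to 1.73). Smooth muscle genes of this list are also made by pericytes, and of the 4 measured pericyte markers 3 were at least 2-fold lower and 1, Des, was at least 2-fold higher; their part in these values was not tested. Genes on the opposite strand overlap 67.9% of the exonic bases of Tagln.

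Zfp36 lies on the minus strand of chromosome 7 (28376784 to 28380253). It was at 149 FPKM (143 to 154) in Scramble control and 71.4 FPKM (67.5 to 75.5) in Cdk14-sh, 2.08-fold lower (1.94 to 2.23). Of the measured genes, 1614 (12.6%) had a log2 ratio as low or lower. The related AU-rich binding gene Zfp36l1 was 1.76-fold lower (1.68 to 1.85), at 300 FPKM and 170 FPKM, though an opposite-strand gene overlaps 55.9% of its exonic bases. Zfp36l2 was 1.44-fold higher (1.25 to 1.66), at 18.8 FPKM and 27.1 FPKM. The summed level of Zfp36, Zfp36l1 and Zfp36l2 was 467 FPKM and 269 FPKM.

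Messages known as targets of Zfp36 were on both sides. Of 12 listed, 8 were measured, with 3 past 2-fold lower, 2 past 2-fold higher and a median log2 ratio of -0.26, against 13.5% and 14.2% of all genes past 2-fold and a median of 0.02. The chemokine gene Ccl2 was 6.26-fold lower (5.40 to 7.30), the cytokine gene Lif 2.74-fold lower (2.20 to 3.44) and the chemokine gene Cxcl1 2.14-fold lower (1.97 to 2.33). The prostaglandin synthase gene Ptgs2 was 5.36-fold higher (4.49 to 6.38), the chemokine gene Cxcl2 4.96-fold higher (3.08 to 8.34) and the angiogenic factor gene Vegfa 1.14-fold higher (1.01 to 1.29). Tnf, the best-known target, was at 5.15 FPKM and 5.40 FPKM, a ratio of 1.05 (0.674 to 1.63); it is named after its values were seen.

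The order of the 9 genes changed at the middle of the range. In Scramble control it was Ier2, Nr4a1, Egr1, Zfp36, Egr2, Nr4a2, Ier5, Srf and Egr3, where Nr4a1 and Egr1, and Srf and Egr3, had overlapping counting intervals. In Cdk14-sh Egr2 stood below Nr4a2 and Ier5, its interval overlapping that of Ier5 at 29.3 FPKM. Srf and Egr3 overlapped again there, and Nr4a1 was above Egr1 beyond counting error.

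**Figure D4:**
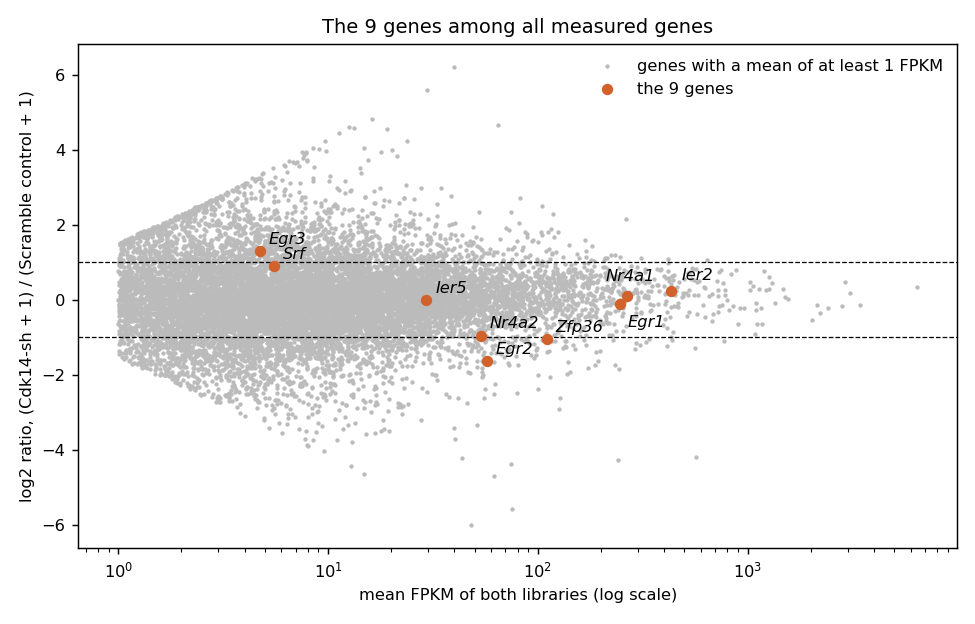
Log2 ratio of Cdk14-sh over Scramble control, with 1 FPKM added, against the mean FPKM of both libraries (log axis), for the 12830 measured genes (grey) and the 9 genes (orange); dashed lines mark 2-fold. Egr2 (-1.62) and Zfp36 (-1.05) lie below the lower line, Egr3 (1.31) lies above the upper line, and the other 6 lie between them.

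Other immediate early genes were lower more often than not. Of 16 outside AP-1 and outside the 9, all measured, 14 had a log2 ratio below 0, against 48.6% of all measured genes, and the median was -0.41. The counting interval lay below 1 for 13 of them, against 33.2% of all genes, again not compared at matched levels. Past 2-fold, 3 were lower and none was higher, against 13.5% and 14.2% of all genes, and 4 were lower under each of 3 scalings of Cdk14-sh. The stress gene Gadd45b was 4.09-fold lower (3.61 to 4.63) at 39.3 FPKM in Cdk14-sh, the cytokine signalling inhibitor Socs3 3.10-fold lower (2.91 to 3.29) at 94.0 FPKM and the kinase gene Plk3 2.64-fold lower (2.43 to 2.87) at 61.0 FPKM. At the other end stood the kinase gene Plk2 (474 FPKM and 513 FPKM), the Krüppel-like factor gene Klf6 (298 FPKM and 299 FPKM) and the clock gene Per1 (3.14 FPKM and 2.79 FPKM). The list was chosen with earlier results of these data known.

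The AP-1 genes, which share the same stimuli, were as divided as the 9. Fos (591 FPKM and 283 FPKM), Junb (519 FPKM and 308 FPKM) and Fosb (79.2 FPKM and 70.4 FPKM) were lower, and Fosl1 (1.98-fold), Jun (154 FPKM and 242 FPKM), Jund (39.8 FPKM and 53.9 FPKM) and Fosl2 (15.5 FPKM and 19.9 FPKM) were higher, each beyond counting error. The median log2 ratio of the 7 was 0.34. At least 2-fold lower was 1 of them (Fos) and at least 2-fold higher 0, against 13.5% and 14.2% of all genes. The counting interval left out 1 for 69.1% of all genes, a share not taken at matched levels. An opposite-strand gene overlaps 57.2% of the exonic bases of Fosl1, and another 52.6% of those of Jund.

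Upstream of the 9, a list of 11 kinases and the factor Creb1 also went both ways, with 2 past 2-fold lower, 3 past 2-fold higher and a median log2 ratio of -0.18. Of all genes 13.5% and 14.2% were past 2-fold, and both counts of the list were 0 with a pseudocount of 5 FPKM. The lowest were the ERK-activated kinase gene Rps6ka3, 3.90-fold lower (3.15 to 4.88), Creb1, which binds cAMP response elements, 2.44-fold lower (2.06 to 2.90), and the ERK activator gene Map2k1, 1.94-fold lower (1.75 to 2.16). The highest were the p38 gene Mapk14, 2.90-fold higher (2.34 to 3.64), the nuclear kinase gene Rps6ka5, 3.65-fold higher (2.62 to 5.18) at 2.77 FPKM, and Braf, 2.23-fold higher.

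**Figure D5:**
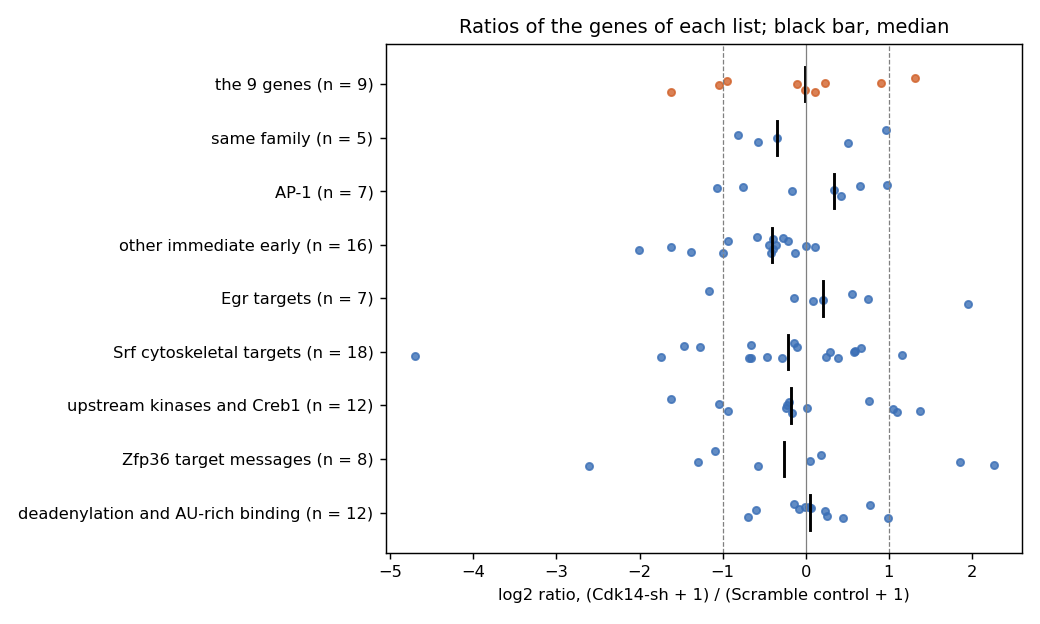
Log2 ratio of Cdk14-sh over Scramble control, with 1 FPKM added, for each measured gene of 9 lists (points, spread vertically at random within a row) with the list's median (black bar); dashed lines mark 2-fold. The other immediate early genes have a median of -0.41 with 14 of 16 below 0, and the 9 genes a median of -0.01.

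Markers of other cells of the gland differed between the libraries as well. Basal markers were plentiful, with a summed level of 5196 FPKM in Scramble control and 3844 FPKM in Cdk14-sh over 14 genes. Of these 14, 10 had a log2 ratio below 0, against 48.6% of all measured genes. Past 2-fold, 3 were lower (Cnn1, Tagln and Myh11) and 1 was higher, and the median log2 ratio was -0.33. Cnn1 and Tagln are also among the Srf-dependent cytoskeletal genes past 2-fold lower, so the lists overlap. The background for such counts, here and in the marker lists below, was 13.5% of all measured genes on the lower side. On the higher side it was 14.2%. Endothelial markers (11 of 12 analysed) summed to 230.4 FPKM and 55.5 FPKM, and 8 of 10 measured were at least 2-fold lower. Pericyte markers (5 of 8) summed to 127 FPKM and 60.0 FPKM, with 3 of 4 measured past 2-fold lower and 1 past 2-fold higher, and immune markers (8 of 12) to 108 FPKM and 388 FPKM, with 4 of 6 measured at least 2-fold higher. Luminal markers (15 of 17) summed to 1762 FPKM and 1237 FPKM, and of 11 measured 4 were past 2-fold lower and 3 past 2-fold higher. Fibroblast markers (7 of 10) summed to 781 FPKM and 574 FPKM, although their median log2 ratio was 0.84, with 2 past 2-fold lower and 3 past 2-fold higher. Of 6 adipocyte genes, 5 (Adipoq, Plin1, Lep, Cidec and Retn) were not among the genes listed. No listed gene was at 0, so whether these were absent from either library or from both is not known. Fabp4, the only 1 left of that list, was at 94.3 FPKM in Scramble control and 8.45 FPKM in Cdk14-sh. On its own Fabp4 does not show that adipocytes were present. Of 10 retina genes, 2 were analysed, and each was below 2 FPKM. The part of these markers in the differences of Egr2, Nr4a2, Zfp36, Egr3 and Srf was not tested. In bulk libraries, fewer cells of a type and less RNA per cell cannot be told apart.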

How the data were processed

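The authors deposited 1 table of FPKM values with a column for each library, each listing 15239 genes and none at 0. Column names abbreviate the sample titles. Per the submitters' processing notes, Bowtie 0.12.2 and featureCounts of Subread 1.5.1 were used, and the notes list mm8 and GRCm38 as builds without saying what each was for. Per the labels' protocols the library kit was stranded.

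FPKM times exonic length (GENCODE M21, GRCm38; 15191 genes) gave fragments, taking the commonest value as 1 fragment. For 79.1% of genes, and 6 of the 9, the result was a multiple of 0.25 fragments in both libraries (tolerance 0.005). Recovered fragments summed to 112% of each total, so intervals are approximate. The steps were run on simulated data with Python 3.11.15, numpy 2.4.6 and scipy 1.17.1. The simulation drew whole fragments and used the same lengths, so it checked the arithmetic only. It could not check the lengths or the fractional steps, and 30.3% of genes had whole fragments in both libraries.

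Ratios in the text are plain FPKM ratios. The log2 ratio adds 1 FPKM, which understates differences of low genes, and counts use genes whose mean reached 1 FPKM. With 1 library a group no test was possible. Other genes named are all of the family, corepressor, cofactor, partner and AP-1 lists except Egr4 and Rxrg, which had no values listed. Up to 3 highest and 3 lowest of each other list are also named. The 9 genes and all lists were chosen with earlier results of these data known.

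Alternatives were pseudocounts of 0.1 and 5 FPKM, 3 scalings of Cdk14-sh, no filter, a mean of at least 5 FPKM, a 1.5-fold limit and smaller counting units.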

Additional observations from a re-analysis of the deposited data

How the results depend on the processing

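A pseudocount cannot change the sign of a gene's log2 ratio, so the 2 other pseudocounts did not test the signs. The 3 scalings lowered Cdk14-sh by at most 0.02 on the log2 scale. The smallest log2 ratio above 0 among the 9 genes was 0.11 (Nr4a1), so these scalings could not change a sign either. The count of the 9 at least 2-fold lower stayed at 2, except for 3 with a 1.5-fold limit. The count at least 2-fold higher was 1 and became 2 with a pseudocount of 0.1 or a 1.5-fold limit (Srf joining Egr3), and 0 with a pseudocount of 5 or with a filter at a mean of 5 FPKM, which Egr3 does not reach. The log2 ratio of Egr3 was 0.74 with a pseudocount of 5, that of Srf from 0.55 to 1.07 and that of Egr2 from -1.65 to -1.50. Of 250 values for the other lists under alternatives, 29 moved (a count by over 1.5 times, a median by 0.1 or more), all under a pseudocount, filter or limit, and no list's median changed sign. Among all genes, those at least 2-fold lower and higher numbered 612 and 677 with a pseudocount of 5, 909 and 946 with a mean of at least 5 FPKM, and 3141 and 3239 with a 1.5-fold limit, against 1735 and 1828. Counting each step of 0.5 fragments as a fragment was run for the 9 genes and can only narrow their intervals. It therefore could not test the genes whose interval already left out 1. The interval of Ier5 still held 1 (0.910 to 1.09).

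Egr3 and Srf rest on 51 and 52 fragments in Scramble control, so their folds are the least certain of the 9. Leaving out a replicate could not be run, since it would empty a group. No paired analysis was possible because each group held 1 library and the labels give no replicate number.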

Other observations

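The gene closest to each of the 9, by Euclidean distance over the 2 libraries on the log2(FPKM + 1) scale among measured genes in no list, was taken as the most similar pattern. With 2 libraries many genes lie near any point, so this describes levels and nothing shared. For Egr2 it was the phosphatase gene Ptpn2 (83.5 FPKM and 27.0 FPKM), and for Nr4a2 it was Id1, an inhibitor of helix-loop-helix factors (69.7 FPKM and 37.3 FPKM). For Zfp36 it was Gem, a small GTPase gene (142 FPKM and 67.6 FPKM), at a distance of 0.10, the largest of the 9. For Nr4a1 it was the stress gene Gadd45g (254 FPKM and 271 FPKM), for Srf the Mediator gene Med16 (3.49 FPKM and 7.54 FPKM), for Egr3 Zfp280c (2.29 FPKM and 7.06 FPKM) and for Ier5 the receptor gene Lrp10 (29.7 FPKM and 29.5 FPKM). The ribosomal genes Rps27rt and Rpl17 were nearest to Egr1 and Ier2.

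Genes of deadenylation, decapping and AU-rich binding, which act with or against Zfp36, were on both sides. Of 13 listed, 12 were measured. With 1 FPKM added none was at least 2-fold lower or higher, where 27.8% of all measured genes were, and with a pseudocount of 0.1 FPKM 1 was at least 2-fold higher. The counting interval left out 1 for 2 lower and 5 higher genes. Their median log2 ratio was 0.05. The extremes were the deadenylase scaffold gene Cnot1, 1.72-fold lower (1.55 to 1.93), Cnot8, 1.55-fold lower (1.27 to 1.89), and Khsrp (8.86 FPKM and 7.91 FPKM) on the low side. On the high side were Cnot3, 3.02-fold higher (2.06 to 4.65) at 2.87 FPKM, and the deadenylases Cnot6, 1.80-fold higher (1.55 to 2.10), and Cnot6l, 1.42-fold higher (1.24 to 1.61). The RNA-stabilising gene Elavl1 was at 21.4 FPKM and 22.0 FPKM and is named after its values were seen.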
